A study of Homo sapiens with 20 samples.

Results

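The genes described here are 49 genes of DNA break repair and its signalling: the homologous recombination genes, the Fanconi anaemia genes, the checkpoint kinases and their partners, the proteins that mark chromatin beside a break, and the genes of the end joining routes. They were matched by symbol, and all 49 were found among the 20314 genes of the deposited count table. All 49 also passed the filter on low counts that kept 14992 genes for testing, and their counts ran from 225 to 36437 reads per library. RNA was sequenced from U2-OS, a human osteosarcoma cell line grown in DMEM with FCS, as 5 biological replicates of each of 4 conditions. These were no treatment, harvest at 1.5 h or at 7 days after 20 Gy of ionizing radiation, and, without irradiation, cells in which an shRNA lowered NFKBIA, the gene of the NF-κB inhibitor IκBα. According to the methods the shRNA vector was lentiviral and switched on by doxycycline, and transduced cells were selected clonally with puromycin. For untreated cells the labels mention no vector and no doxycycline, and a scrambled shRNA control is not among the labelled samples, so that the effect of the knockdown and that of vector, selection and doxycycline cannot be told apart here.

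Ionizing radiation breaks both strands of DNA. Homologous recombination mends such a break by trimming its ends to single strands, coating these with the help of the BRCA proteins and copying the sister chromatid, and so works mainly in S and G2 phase. The Fanconi proteins use the same machinery to remove crosslinks at stalled forks, ATR and CHEK1 hold the cell cycle while this happens, and non-homologous end joining ligates the ends directly in any phase. Many recombination, Fanconi and checkpoint genes are transcribed mainly in cells that enter S phase, and cells that have stopped dividing hold less of their mRNA.

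The libraries held between 22535659 and 40390961 reads counted on genes, and levels are given below in CPM, the counts scaled to the size of each library by TMM. NFKBIA, the target of the shRNA, read from 11.2 to 13.0 CPM in the knockdown and from 23.5 to 42.0 CPM in untreated cells, from 76.3 to 88.3 CPM at 1.5 h and from 28.4 to 32.4 CPM at 7 days. Of 10 bone and mesenchymal genes, SP7 and IBSP had 3 counts or fewer in every library and COL1A2 stayed under 0.6 CPM, and the list summed to 5970 to 7250 CPM in untreated cells, 5740 to 5970 at 1.5 h, 4900 to 5370 at 7 days and 5050 to 5340 in the knockdown. Of 15 genes of other cell types (blood, epithelial, endothelial, liver and glial) 14 were in the table, with 4 to 9 of them at 3 counts or fewer in every library of a group. They summed to 11.2 to 14.5 CPM in untreated cells, 10.7 to 13.7 at 1.5 h, 7.73 to 8.22 at 7 days and 4.72 to 5.86 in the knockdown, and their part in the results was not tested. Untreated replicates 4 and 5 stood apart from the other 3, with a root mean square deviation from the group mean of 0.31 and 0.45 on the log2 scale over all genes tested, against 0.13 to 0.23 for the other 18 libraries. In all 49 genes at least 1 of these 2 libraries was the highest or the lowest of its group. The share over all genes tested was not computed, so this count does not set the 49 apart from other genes. The median coefficient of variation over the 49 genes was 12.6% among untreated libraries and 3.94%, 3.57% and 4.26% at 1.5 h, at 7 days and in the knockdown. Untreated replicates 1 to 4 were sequenced in a different lane from every irradiated or knockdown library, untreated replicate 5 shared lane 3 with 3 libraries at 1.5 h, and no lane held both untreated cells and cells at 7 days. A fit with the lane as a factor therefore links untreated cells to the other groups through replicate 5 alone, the library that stood farthest apart, and its values against untreated cells rest on that library.

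At 7 days after irradiation the repair genes were lower as a group, while individual members ranged from 0.328 to 1.35 times the untreated level. A gene was called changed with an absolute log2 fold change above 0.5 and an adjusted p under 0.05 (edgeR quasi-likelihood test with Benjamini-Hochberg adjustment over 14992 genes). By this rule 17 of 49 genes (34.7%) fell, against 14.4% of all genes tested. Of the 49 none was called higher by edgeR or by DESeq2, against 16.7% of all genes, and 6 had a positive change at an unadjusted p under 0.05. By the adjusted p alone, 34 genes (69.4%) were lower and 6 (12.2%) were higher, against 31.2% and 32.9% of all genes. The median log2 fold change of the 49 was −0.37, and that of all genes tested was 0.01. In 27 genes (55.1%) all 5 libraries at 7 days lay below all 5 untreated ones, and in 4 (8.16%) above them, against 20.4% and 24.4% of all genes. Set against all 15 other libraries of the study, 24 genes (49.0%) were lower in every library at 7 days and 1 gene, RAD51C, was higher in every one, against 14.2% and 16.8% of all genes.

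These falls moved together with a lower level of proliferation genes. A list of 27 measured cell cycle genes summed to between 3920 and 4090 CPM at 7 days and to between 7160 and 7940 CPM in untreated cells, and 23 of the 27 (85.2%, against 14.4% of all genes) were called lower, at a median of −1.03 on the log2 scale. With the lane as a factor that median was −0.818. MKI67, the Ki-67 antigen of cycling cells, had a log2 fold change of −1.74 ± 0.23 (SE) and CCNB1, the cyclin of mitotic entry, one of −0.91 ± 0.11, while PCNA, the sliding clamp of replication forks, stood at −0.05 ± 0.066 with an adjusted p of 0.565 by edgeR. The size of the MKI67 value rests in part on untreated replicate 5, at 1820 CPM against 434 to 801 CPM in the other untreated libraries. The part of cell proliferation in the levels of the repair genes was not tested. In bulk RNA a smaller share of cells in S and G2 phase and less mRNA per cell cannot be told apart.

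**Figure D1:**
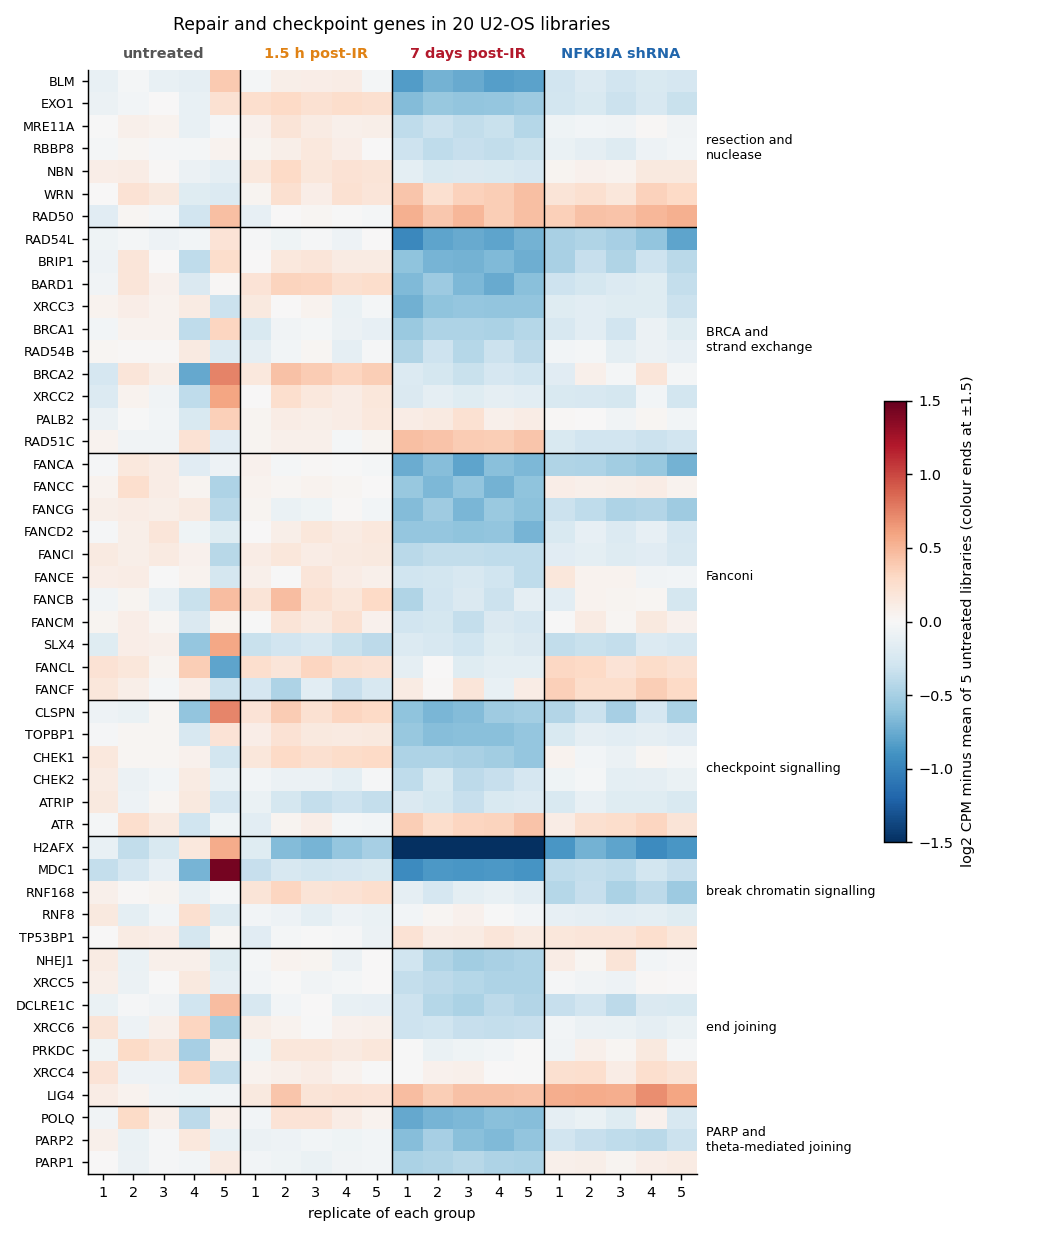
Heatmap of the 49 genes (rows, grouped by role and ordered by their change at 7 days) in the 20 libraries (columns, 5 replicates per group). Colour gives log2 CPM minus the mean of the 5 untreated libraries, with the scale ending at ±1.5. The block at 7 days is mostly blue, RAD51C, RAD50, WRN, ATR and LIG4 are red in it, and untreated replicates 4 and 5 differ from the other untreated columns.

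The genes that resect a broken end split into falls and values above the untreated level. BLM, the RecQ helicase that widens resected ends and dissolves crossed strands, read 33.8, 35.9, 33.9, 33.2 and 47.8 CPM in the untreated libraries and 20.5, 22.3, 21.6, 20.7 and 20.9 CPM at 7 days. All libraries at 7 days lay below all untreated ones, and untreated replicate 5 was the high one. The log2 fold change of BLM was −0.80 ± 0.076 (SE; adjusted p = 1.08e-08, edgeR), and an exact permutation test gave p = 0.00794, the smallest that 5 against 5 libraries allow. EXO1, the exonuclease of long-range resection, fell from 53.7 ± 5.39 to 35.7 ± 0.959 CPM (SD, n = 5), a log2 fold change of −0.59. Smaller negative values past the adjusted p only were found for MRE11A, the nuclease of the MRN complex (−0.37), RBBP8, which encodes its cofactor CtIP (−0.35), and NBN, the subunit of that complex that recruits ATM (−0.22).

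RAD50, the coiled-coil ATPase that joins MRE11A and NBN in the MRN complex, went the other way. Its untreated libraries read 67.1, 76.7, 73.8, 61.7 and 103 CPM and those at 7 days 109, 100, 106, 97.1 and 103 CPM. Only untreated replicate 5 reached the level at 7 days, and the other 4 untreated libraries were all lower. The log2 fold change was 0.44 ± 0.090 (adjusted p = 2.61e-04, edgeR), under the size needed for a call, 0.54 without untreated replicate 5, which makes it a call, and 0.02 ± 0.13 with the lane as a factor (adjusted p = 0.898, edgeR). WRN, the RecQ helicase mutated in Werner syndrome, had a value of 0.36 ± 0.072 past the adjusted p only, with no overlap between the groups, and one of 0.22 without untreated replicates 4 and 5. Compared per length, the ratio of RAD50 to MRE11A within a library was 0.601 ± 0.123 (SD, n = 5) in untreated cells, 0.540 ± 0.0192 at 1.5 h, 1.05 ± 0.0678 at 7 days and 0.830 ± 0.0362 in the knockdown. The ratio of NBN to MRE11A was 1.11 ± 0.0444 at 7 days, 1.07 ± 0.0204 at 1.5 h and 1.09 ± 0.0337 in the knockdown, and ran from 0.921 to 1.07 in untreated libraries.

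Among the BRCA genes and the genes of strand exchange, 4 of 10 fell, against 14.4% of all genes, 3 passed the adjusted p only and 3 did not pass it. RAD54L, a motor protein that opens the template duplex, read 45.9, 46.9, 45.6, 46.6 and 55.5 CPM in untreated libraries. At 7 days its libraries read 24.5, 27.7, 28.5, 27.7 and 29.3 CPM, all of them below the untreated range. With a log2 fold change of −0.80 ± 0.066 (adjusted p = 1.12e-09, edgeR) it lost 42.7% of its level. BRIP1, the helicase that binds the BRCT repeats of BRCA1, read 68.6, 81.4, 72.3, 55.5 and 86.7 CPM in untreated libraries and 47.3, 44.3, 44.2, 45.4 and 43.2 CPM at 7 days. The groups did not overlap, and the change was −0.70 ± 0.082 (adjusted p = 2.12e-07, edgeR). BARD1, the partner of BRCA1 in its ubiquitin ligase, read 36.6, 43.2, 39.6, 32.7 and 38.5 CPM and then 23.9, 26.0, 23.8, 22.5 and 24.5 CPM. It fell by 0.66 ± 0.063 on the log2 scale (adjusted p = 9.27e-09, edgeR), again with no overlap. XRCC3, a strand exchange factor, fell by 0.63 ± 0.071, but only by 0.21 with the lane as a factor.

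BRCA1 itself lay at the edge of the rule, and settings decided its call. Untreated libraries read 104, 111, 111, 82.0 and 134 CPM and libraries at 7 days 72.8, 77.8, 77.8, 76.9 and 79.4 CPM, so that the groups did not overlap although the lowest untreated library, replicate 4, came near the highest at 7 days. The log2 fold change was −0.49 ± 0.084 (adjusted p = 2.99e-05, edgeR), next to −0.51 for CHEK1 on the other side of the threshold, and it was −0.52 without untreated replicates 4 and 5. It was called with RLE factors, with DESeq2 and in a fit of only these groups (−0.51 each), with no filter (−0.53) and with the lane as a factor (−0.82, adjusted p = 4.6e-04, edgeR). Leaving out 1 library at a time gave −0.60 to −0.43, with a call in 6 of 10 fits. Among the other settings the smallest change was −0.44. BRCA2, a mediator of strand exchange, read 44.1, 59.5, 55.5, 30.7 and 87.9 CPM in untreated libraries and 45.5, 43.7, 41.4, 44.1 and 42.6 CPM at 7 days. Here the untreated libraries spread on both sides of those at 7 days, with replicate 4 lowest and replicate 5 highest. Its log2 fold change of −0.35 ± 0.17 did not pass (adjusted p = 0.0702, edgeR, and p = 0.397, exact permutation test), and it was −0.15 without untreated replicate 5. It was called without untreated replicate 4 (−0.53) and with the lane as a factor (−1.0, adjusted p = 0.00676, edgeR). PALB2, the bridge between BRCA1 and BRCA2, had a value of 0.12 and XRCC2, another strand exchange factor, one of −0.20, neither of which passed. Untreated replicate 5 was the highest untreated library of both. It read 26.2 CPM of PALB2 (the others 17.5 to 20.3) and 30.8 CPM of XRCC2 (the others 15.7 to 21.2). PALB2 turned to −0.30 with the lane as a factor (adjusted p = 0.0317, edgeR). RAD54B, the relative of RAD54L, had a value of −0.39 past the adjusted p only.

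RAD51C, a strand exchange factor that forms complexes with XRCC3 and with XRCC2, was the 1 member that stood above every other library of the study at 7 days. It read 99.7, 92.9, 92.7, 112 and 85.5 CPM in untreated libraries and 131, 129, 125, 124 and 128 CPM at 7 days. At 1.5 h it read between 94.1 and 101 CPM and in the knockdown between 77.2 and 81.8 CPM, the lowest of the 4 groups. The log2 fold change at 7 days was 0.40 ± 0.054 (adjusted p = 1.78e-06, edgeR), which is past the adjusted p but not the size, and 0.40 also without untreated replicates 4 and 5.

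Of the 11 Fanconi genes 4 fell at 7 days, against 14.4% of all genes, and 8 were lower by the adjusted p alone, against 31.2%, while 3 did not pass. FANCA, a scaffold of the core complex, read 113, 127, 123, 101 and 108 CPM in untreated libraries and 68.0, 73.0, 66.0, 74.1 and 71.3 CPM at 7 days. These ranges lay well apart, and the log2 fold change was −0.70 ± 0.061 (adjusted p = 2.76e-09, edgeR). FANCD2, which the core complex marks with ubiquitin, read 82.5, 89.1, 95.0, 80.1 and 73.6 CPM and then 56.1, 56.1, 55.0, 55.7 and 51.6 CPM. It fell by 0.62 ± 0.057 on the log2 scale (adjusted p = 7.3e-09, edgeR), and its partner FANCI had a value of −0.39 ± 0.071, so that the ratio of FANCD2 to FANCI per length was 0.555 ± 0.0612 (SD, n = 5) in untreated cells and 0.471 ± 0.0166 at 7 days. The core complex subunits FANCC and FANCG fell by 0.65 ± 0.081 and 0.62 ± 0.076. With the lane as a factor FANCD2 had −0.44, FANCC −0.14 and FANCG −0.22, and none of these 3 was then called, and FANCI turned to 0.03 (adjusted p = 0.802, edgeR).

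The other 7 Fanconi genes were not called. Besides FANCI, FANCE, an adaptor of the core complex (−0.30), FANCB (−0.29), a core subunit, and FANCM, the translocase that brings the complex to DNA (−0.28), passed the adjusted p only. FANCB had −0.20 without untreated replicate 5 and did not pass (adjusted p = 0.0507, edgeR), and with the lane as a factor FANCE had −0.02 (adjusted p = 0.868, edgeR). FANCL, the ubiquitin ligase of the core complex (−0.17), the nuclease scaffold SLX4 (−0.27) and the core adaptor FANCF (0.05) did not pass. For FANCL untreated replicate 5 read 25.7 CPM where the other 4 read 45.8 to 57.6 CPM. For SLX4 the same library read 66.1 CPM where the other 4 read 29.7 to 47.4 CPM.

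In checkpoint signalling the mediators and CHEK1 fell while the kinase ATR did not. TOPBP1, the activator of ATR, fell from 168 ± 18.6 to 110 ± 2.80 CPM (SD, n = 5; log2 fold change −0.61 ± 0.058 SE). CHEK1, the effector kinase of ATR, read 55.5, 50.8, 51.0, 52.0 and 41.2 CPM in untreated libraries and 36.3, 36.3, 35.6, 34.7 and 33.3 CPM at 7 days. The groups did not overlap, and the change of −0.51 ± 0.060 (adjusted p = 2.43e-07, edgeR) was −0.47 without untreated replicate 1, −0.49 without replicate 5 at 7 days, −0.47 with library size alone in place of TMM and −0.24 with the lane as a factor, which ends the call each time. CLSPN, which encodes claspin, the adaptor between ATR and CHEK1, had −0.65 ± 0.15 and was not called without untreated replicate 5, at −0.45. ATR itself had a value of 0.33 ± 0.076 past the adjusted p only and one of 0.20 without untreated replicates 4 and 5, and its partner ATRIP one of −0.26 ± 0.070. In the fit with the lane as a factor ATR had 0.41 (adjusted p = 0.0765, edgeR) and ATRIP turned to 0.12 (adjusted p = 0.543, edgeR). The ratio of ATRIP to ATR per length was 1.04 ± 0.231 (SD, n = 5) in untreated cells, 0.852 ± 0.118 at 1.5 h, 0.675 ± 0.0254 at 7 days and 0.764 ± 0.0354 in the knockdown. ATRIP overlaps TREX1 on the same strand and CHEK1 overlaps STT3A, so that counts of these genes can share reads. CHEK2, the effector kinase of ATM, had a value of −0.32 past the adjusted p only.

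By the fit without lanes, the largest fall of the 49 genes at 7 days was that of H2AFX, the histone variant H2AX whose phosphorylated form marks chromatin beside a break. Its untreated libraries read 164, 138, 152, 198 and 261 CPM. At 1.5 h it read 157, 113, 110, 119 and 126 CPM, at 7 days 58.3, 62.0, 57.9, 60.5 and 60 CPM, and in the knockdown 97.4, 109, 103, 92.2 and 97.1 CPM. The libraries at 7 days lay within 5 CPM of each other and far below the 3 other groups, whereas the untreated libraries spread widely with replicates 4 and 5 on top. At 7 days the log2 fold change was −1.61 ± 0.13 (adjusted p = 7.41e-10, edgeR), a loss of 67.2%, and it was −1.36 without untreated replicates 4 and 5 and −2.07 with the lane as a factor, where MDC1 fell more. MDC1, the large adaptor that binds phosphorylated H2AX, read 186, 201, 220, 147 and 648 CPM in untreated libraries and 124, 132, 131, 132 and 130 CPM at 7 days. Untreated replicate 5 was far above the other 4 and moves the size of this change: the log2 fold change was −1.11 ± 0.26 (adjusted p = 8.93e-04, edgeR) with it and −0.56 ± 0.070 without it, both of them called, and it was −2.38 ± 0.17 with the lane as a factor, a fit that rests on that library. The call was lost by Bonferroni correction. In the same library MKI67 read 1820 CPM, against 434 to 801 CPM in the other 4. Of the further genes of this step, the ubiquitin ligase RNF168 had −0.16 and TP53BP1, the 53BP1 protein that shields ends from resection, 0.14, both past the adjusted p only, though TP53BP1 had 0.06 without untreated replicate 4 and did not pass (adjusted p = 0.218, edgeR), and RNF8, the ubiquitin ligase that acts before RNF168, had −0.01.

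Of the 7 genes of end joining none was called lower at 7 days by edgeR or DESeq2, against 14.4% of all genes, 4 had negative values at an unadjusted p under 0.05, and the same number passed the adjusted p: NHEJ1, which encodes the ligase cofactor XLF (−0.45), XRCC5 (−0.42) and XRCC6 (−0.36), which encode the Ku80 and Ku70 subunits of the end-binding ring, and the nuclease gene DCLRE1C, or Artemis (−0.42). NHEJ1 was called without untreated replicate 5 (−0.51), and with the lane as a factor DCLRE1C was called lower (−0.80) and LIG4 higher (0.52), while NHEJ1 had −0.13 (adjusted p = 0.442, edgeR) and XRCC6 turned to 0.19 (adjusted p = 0.244, edgeR). PRKDC, the catalytic subunit of the DNA-dependent kinase, read 764, 976, 912, 565 and 851 CPM in untreated libraries and 796, 746, 767, 780 and 797 CPM at 7 days. The untreated libraries lay on both sides of those at 7 days, and the value of −0.07 ± 0.097 did not pass (adjusted p = 0.566, edgeR, and p = 0.817, exact permutation test). LIG4, the ligase of this route, read 25.4, 24.4, 22.5, 22.4 and 22.6 CPM in untreated libraries and 32.4, 30.3, 31.9, 31.7 and 31.4 CPM at 7 days. Every library at 7 days was above every untreated one, with a log2 fold change of 0.43 ± 0.053 (adjusted p = 5.58e-07, edgeR) that is under the size for a call. Its scaffold XRCC4 had 0.01 ± 0.082, and the ratio of LIG4 to XRCC4 per length was 0.474 ± 0.0807 (SD, n = 5) in untreated cells and 0.618 ± 0.0282 at 7 days.

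All 3 genes of the alternative route and of PARP signalling were lower at 7 days by the adjusted p, against 31.2% of all genes. POLQ, the polymerase of theta-mediated end joining, read 81.8, 103, 89.5, 64.5 and 88.9 CPM in untreated libraries and 49.8, 52.0, 52.9, 54.7 and 54.2 CPM at 7 days. There was no overlap, and the log2 fold change was −0.70 ± 0.088 (adjusted p = 6.41e-07, edgeR). PARP2 fell by 0.61 ± 0.051, and PARP1, the main sensor of strand breaks, had −0.46 ± 0.041 past the adjusted p only. With the lane as a factor PARP2 had −0.47 and was not called.

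**Figure D2:**
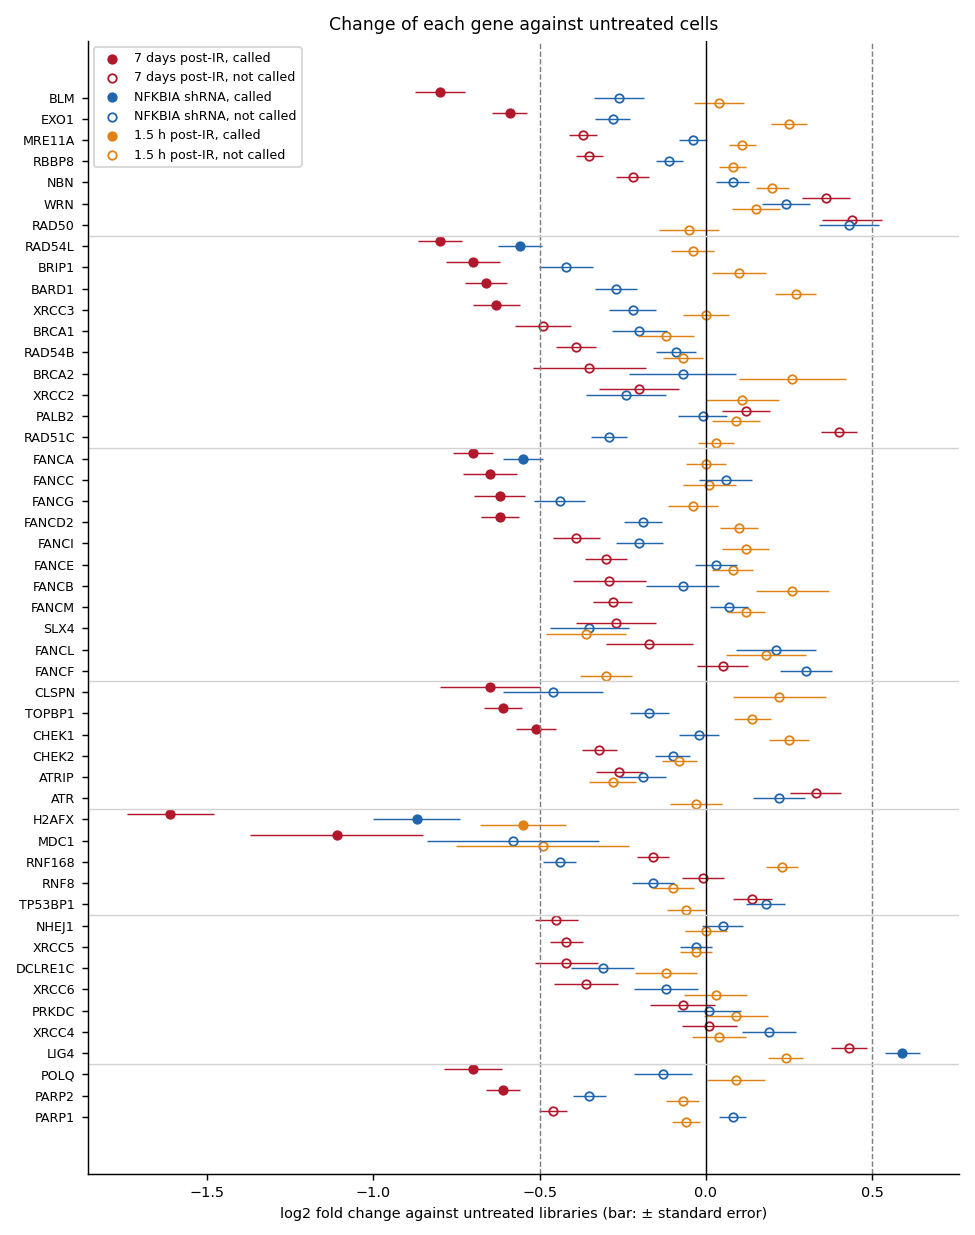
Log2 fold change (x axis) of each of the 49 genes (y axis, grouped by role) against the untreated libraries, with bars of 1 standard error. Filled points are called, open points are not, and dashed lines mark the threshold of 0.5 in either direction. Only the series at 7 days crosses the left threshold often, from −0.51 for CHEK1 to −1.61 for H2AFX, and LIG4 in the knockdown is the 1 point called on the right.

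The lane limits the comparison of 7 days with untreated cells. With the lane as a factor 18 genes were called lower, of which 11 were among the 17 above, and FANCL, LIG4 and RAD51C were called higher, at 0.76, 0.52 and 0.66, against 19.5% and 21.8% of all genes in that fit. These values rest on untreated replicate 5, whose FANCL was the lowest and whose MDC1 the highest of its group, and FANCL had −0.17 without the lane. The 7 genes added on the lower side were BRCA1 and BRCA2 as given above, DCLRE1C (−0.80), FANCB (−0.76), XRCC2 (−0.76), SLX4 (−0.73) and PARP1 (−0.61), and CLSPN moved to −1.41. Of the 49 genes 25 passed the adjusted p alone in both fits, with the same sign, 15 no longer passed with the lane as a factor and 6 came to pass. Among the 15 were NBN (−0.03), CHEK2 (−0.18), RAD54B (−0.16), RNF168 (−0.16) and TP53BP1 (0.11) besides those given above, and XRCC4 (0.45) was among the 6. Whether the lane or this library moves them cannot be told apart. Without untreated replicates 4 and 5, chosen after seeing the data, 19 were called lower, all 17 among them, with BRCA1 and FANCI added.

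Promoters of the genes were searched for letters of cell cycle elements, as a description. RefSeq promoter windows (GRCh38.p14, 250 bases before to 50 after the start) were found for 43 of the 49 genes. E2F sites were searched on both strands as TTTCGCGC, TTTGGCGC, TTTCCCGC or TTTGCCGC, the cell cycle homology region as TTTGAA or TTCGAA, and the CCAAT box as CCAAT. An E2F form was found in 8 genes (18.6%), against 3.99% of the 27305 genes in the table. CCAAT was found in 22 (51.2%), against 39.7%, and the cell cycle homology letters in 6 (14.0%), against 19.5%. The 27305 genes are all those with a promoter window, more than were counted or tested here. No share over the tested genes alone was computed. Of the 17 genes that fell at 7 days, 6 held an E2F form, 6 the cell cycle homology letters and 9 a CCAAT box. XRCC2 and XRCC6, which were not called at 7 days, held an E2F form as well. For each of the 8 genes 1 match is shown, of the 2 that FANCC holds and the 1 of each other gene, with up to 10 bases on each side, 5′ to 3′ along the gene's strand, with the matched letters in capitals; a match is not evidence of binding.
CLSPN (chr1:35769966-35769993, minus strand): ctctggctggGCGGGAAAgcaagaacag
EXO1 (chr1:241848198-241848225, plus strand): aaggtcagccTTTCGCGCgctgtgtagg
FANCA (chr16:89816802-89816829, minus strand): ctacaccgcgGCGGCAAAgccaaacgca
FANCC (chr9:95317864-95317891, minus strand): cggggcttccGCGCGAAAccgggaacac
FANCD2 (chr3:10026425-10026452, plus strand): gtcgggcctgGCGGGAAAgtcgaaaact
TOPBP1 (chr3:133661931-133661958, minus strand): cgcgcggttgGCGCGAAAgtcggttccc
XRCC2 (chr7:152676103-152676130, minus strand): ggcgttggtgGCGGGAAAgttgagtctc
XRCC6 (chr22:41621327-41621344, plus strand): tcgcttccctGCGCCAAA

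For H2AFX, for 1 gene that fell with an E2F form and for the 1 gene above all other libraries, the 150 bases before the start are shown from the same table, with CCAAT on either strand in capitals. The stretch of H2AFX holds CCAAT on both strands, that of CLSPN holds it on 1 strand at 3 places, and that of RAD51C holds none.
H2AFX (chr11:119095466-119095615, minus strand): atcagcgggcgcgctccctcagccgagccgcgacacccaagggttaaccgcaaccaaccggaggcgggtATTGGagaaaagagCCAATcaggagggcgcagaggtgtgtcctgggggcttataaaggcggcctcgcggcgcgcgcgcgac
CLSPN (chr1:35769979-35770128, minus strand): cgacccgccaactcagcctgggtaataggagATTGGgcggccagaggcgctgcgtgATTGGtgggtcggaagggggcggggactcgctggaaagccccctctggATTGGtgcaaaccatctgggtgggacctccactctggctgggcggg
RAD51C (chr17:58692423-58692572, plus strand): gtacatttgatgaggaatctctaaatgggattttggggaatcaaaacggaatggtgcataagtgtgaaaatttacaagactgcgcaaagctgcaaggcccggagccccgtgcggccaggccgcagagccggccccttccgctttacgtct

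At 1.5 h after irradiation the repair genes stayed near the untreated level. Of the 49 genes H2AFX alone was called lower (2.04%) and none was called higher by edgeR or DESeq2, against 1.57% and 2.08% of all genes, and 11 had positive values at an unadjusted p under 0.05. By the adjusted p alone 4 genes were lower and 6 higher, against 10.2% and 11.1% of all genes. The median log2 fold change was 0.04, and −0.03 over all genes. Of the 27 proliferation genes 3 (11.1%) were called lower, at a median of −0.17, which was −0.002 with the lane as a factor. H2AFX had −0.55 ± 0.13 (adjusted p = 0.00389, edgeR), with overlap between the groups, and the call was lost without untreated replicate 5 (−0.39), without replicate 3 at 1.5 h (−0.50) and in a fit of only these groups (adjusted p = 0.0769), while the lane as a factor gave −1.04 (adjusted p = 5.28e-05, edgeR). In that fit 4 of the 49 were called lower and 5 higher, against 13.6% and 11.9% of all genes, and by the adjusted p alone 6 of the 10 genes still passed and 21 came to pass.

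The 6 genes that were higher at 1.5 h by the adjusted p belonged to 5 of the 7 steps. They were BARD1 (0.27 ± 0.061), EXO1 (0.25 ± 0.053), CHEK1 (0.25 ± 0.059), LIG4 (0.24 ± 0.053), RNF168 (0.23 ± 0.048) and NBN (0.20 ± 0.049), and in each of them all libraries at 1.5 h lay above all untreated ones, as they did in 7.42% of all genes. CHEK1 read 56.0, 61.3, 58.7, 60.3 and 61.5 CPM at 1.5 h, above the untreated maximum of 55.5 CPM by a small margin. EXO1 read 63.5, 65.9, 62.9, 64.2 and 63.1 CPM, where untreated replicate 5 reached the same 62.9 CPM to 3 digits and the other untreated libraries at most 53.8 CPM. Besides H2AFX the lower ones were SLX4 (−0.36 ± 0.12), FANCF (−0.30 ± 0.079) and ATRIP (−0.28 ± 0.070). SLX4 overlapped between the groups (p = 0.127, exact permutation test) and had −0.20 without untreated replicate 5, its highest untreated library, which did not pass (adjusted p = 0.0765, edgeR). With the lane as a factor, through untreated replicate 5 alone, CHEK1 had 0.51 and SLX4 −0.87 and both were called, NBN (0.35), LIG4 (0.31) and RNF168 (0.26) passed the adjusted p, while EXO1 had 0.03 (adjusted p = 0.776, edgeR), FANCF 0.03, ATRIP 0.02 and BARD1 0.27 (adjusted p = 0.0713, edgeR), and none of these 4 passed. The ratio of BARD1 to BRCA1 per length was 0.629 ± 0.0179 (SD, n = 5) at 1.5 h, above the 0.394 to 0.543 of untreated libraries, and 0.429 ± 0.0233 at 7 days.

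The fold changes from 1.5 h to 7 days come from the 10 irradiated libraries, while the spread of each gene is estimated over all 20 libraries, untreated ones included. In this comparison 20 genes (40.8%) fell, against 12.6% of all genes, and none was called higher by edgeR or DESeq2, against 16.8%, with 7 positive values at an unadjusted p under 0.05. By the adjusted p alone 36 genes were lower and 7 higher, against 28.9% and 32.0% of all genes. The median was −0.40, and 0.01 over all genes. Of the 27 proliferation genes 24 (88.9%) were called lower at a median of −0.80, and their part in these values was not tested. H2AFX fell by 1.06 ± 0.13, BARD1 by 0.93 ± 0.062, CLSPN by 0.88 ± 0.15, EXO1 by 0.84 ± 0.053, BLM by 0.83 ± 0.076 and BRIP1 by 0.80 ± 0.082 on the log2 scale. BRCA2, with 58.2 to 71.0 CPM at 1.5 h and 41.4 to 45.5 CPM at 7 days, fell by 0.60 ± 0.16 (adjusted p = 0.00325, edgeR). Its libraries at 1.5 h all lay above those at 7 days.

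Further falls in this comparison were those of POLQ (−0.79), RAD54L (−0.77), CHEK1 (−0.76), TOPBP1 (−0.75), FANCD2 (−0.72), FANCA (−0.70), FANCC (−0.67), XRCC3 (−0.63), MDC1 (−0.61), FANCG (−0.58), FANCB (−0.55), PARP2 (−0.54) and FANCI (−0.51). The call of MDC1 was lost on leaving out any 1 of the 10 libraries, with adjusted p values of edgeR from 0.0521 to 0.0709. Its libraries nonetheless did not overlap between these groups, and in a fit of only these 10 libraries, which leaves out the spread of the untreated ones, the change was −0.62 ± 0.029 (adjusted p = 6.22e-12, edgeR). Lane 4 alone, with 2 libraries at 1.5 h and 2 at 7 days, had the same 20 genes called lower and no others. The 7 genes higher at 7 days by the adjusted p were RAD50 (0.48), RAD51C (0.37), ATR (0.36), FANCF (0.36), WRN (0.21), TP53BP1 (0.21) and LIG4 (0.19). Once the lane was a factor WRN and TP53BP1 no longer passed (adjusted p = 0.326 and 0.0733, edgeR).

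**Figure D3:**
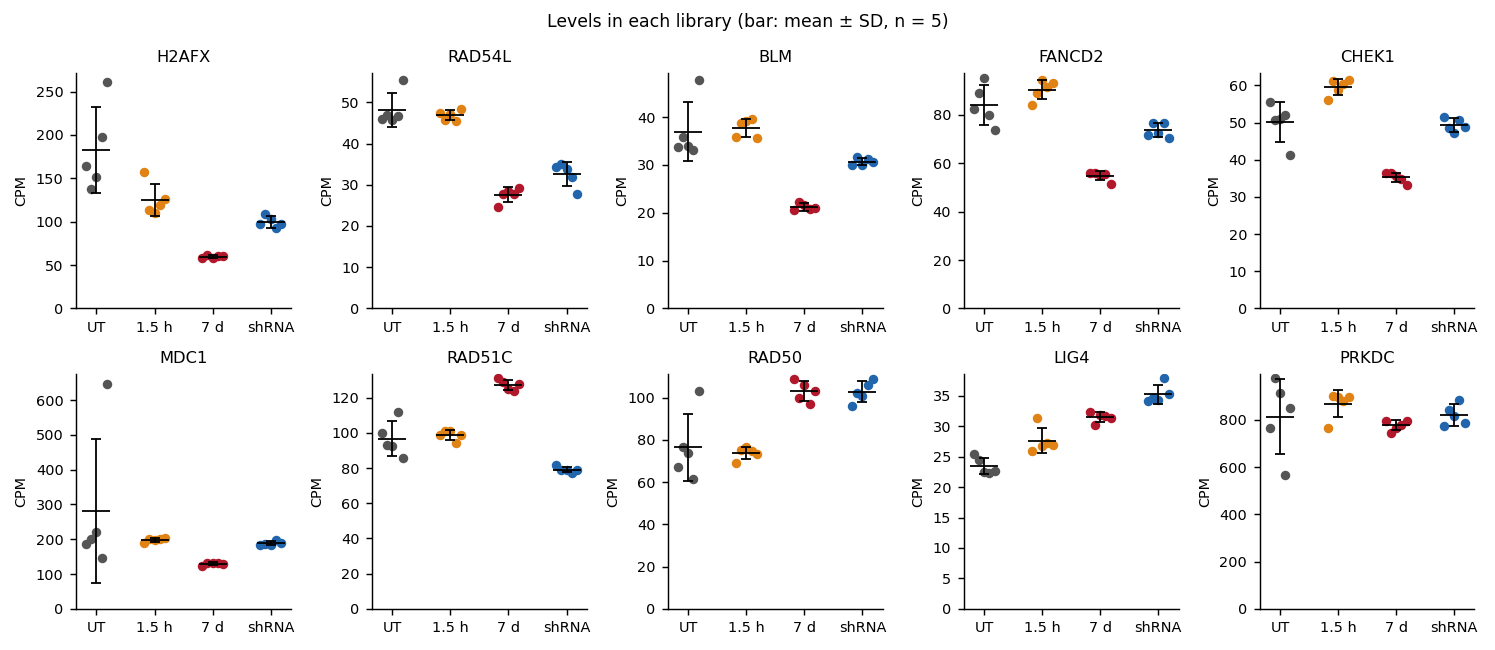
CPM (y axis, from 0) of 10 genes in each library of the 4 groups (UT untreated, 1.5 h and 7 d after irradiation, NFKBIA shRNA), with the mean and SD of 5 libraries as bars. H2AFX, RAD54L, BLM, FANCD2, CHEK1 and MDC1 are lowest at 7 d, RAD51C is highest there, RAD50 and LIG4 have higher means at 7 d and in the knockdown than in untreated cells, and PRKDC overlaps in all groups. Untreated replicate 5, the last grey point, is far above the others for MDC1.

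In the fit without lanes, calls in the non-irradiated NFKBIA knockdown were no more frequent among the 49 genes than among all genes. Lower values past the adjusted p alone were more frequent. H2AFX, RAD54L and FANCA were called lower (3 of 49, 6.12%) and LIG4 was called higher (2.04%), against 7.53% and 5.18% of all genes tested. By the adjusted p alone 21 genes (42.9%) were lower and 6 (12.2%) higher, against 21.1% and 19.5% of all genes. The median log2 fold change was −0.12, and −0.01 over all genes. Here too proliferation genes were lower, with a summed level of 5690 to 5980 CPM, 5 of 27 called lower and a median of −0.37. That median was −0.179 with the lane as a factor. The part of the proliferation genes in these values was not tested.

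H2AFX had −0.87 ± 0.13 in the knockdown (adjusted p = 1.39e-05, edgeR) and −0.62 without untreated replicates 4 and 5, and all its knockdown libraries, given above, lay below all untreated ones. RAD54L read 34.2, 35.1, 33.9, 31.9 and 27.7 CPM, a log2 fold change of −0.56 ± 0.066 (adjusted p = 9.78e-07, edgeR). FANCA read 83.2, 83.0, 79.1, 77.0 and 69.5 CPM, a log2 fold change of −0.55 ± 0.061 (adjusted p = 4.85e-07, edgeR). In both genes replicate 5 of the knockdown was the lowest library and no knockdown library reached the untreated range. With library size alone in place of TMM, RAD54L had −0.50 and FANCA −0.49, and neither was called, and with the lane as a factor FANCA had −0.35 (adjusted p = 0.155, edgeR). In that fit 12 of the 49 were called lower and 6 higher, against 14.0% and 13.3% of all genes, and by the adjusted p alone 15 genes no longer passed, 7 of them with the sign turned, and 12 came to pass. LIG4 read 34.2, 34.6, 34.3, 37.9 and 35.3 CPM, above every untreated library, and its log2 fold change of 0.59 ± 0.053 (adjusted p = 2.84e-08, edgeR) is a rise of 50.2%. Past the adjusted p only were, among others, CLSPN (−0.46 ± 0.15, but −0.25 without untreated replicate 5), RNF168 (−0.44 ± 0.049), FANCG (−0.44 ± 0.076), RAD50 (0.43 ± 0.090) and BRIP1 (−0.42 ± 0.081). RAD50 had 0.54 without untreated replicate 5, which makes it a call, and −0.06 with the lane as a factor. FANCG also turned sign with the lane as a factor and no longer passed. MDC1 had −0.58 ± 0.26, which did not pass (adjusted p = 0.0809, edgeR), and −0.02 without that library.

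Set against the knockdown, cells at 7 days after irradiation were lower in 5 genes (10.2%) and higher in 1 (2.04%), against 9.89% and 15.8% of all genes tested. By the adjusted p alone 31 genes were lower and 3 higher, against 27.7% and 29.7% of all genes. The median was −0.24, and 0.00 over all genes. Of the proliferation genes 18 of 27 (66.7%) were called lower at a median of −0.65, and their part was not tested here either. The falls were those of H2AFX (−0.74 ± 0.13), FANCC (−0.72 ± 0.081), POLQ (−0.57 ± 0.088), PARP1 (−0.54 ± 0.041) and BLM (−0.53 ± 0.076). FANCC read 44.0, 43.5, 43.7, 44.4 and 42.8 CPM in the knockdown and 27.7, 25.7, 27.2, 25.1 and 27.1 CPM at 7 days. PARP1 read 376, 377, 367, 381 and 386 CPM in the knockdown and 256, 261, 266, 259 and 256 CPM at 7 days. In both genes the spread within a group was small beside the gap between the groups. RAD51C was the gene called higher, at 0.69 ± 0.054 (adjusted p = 7.39e-10, edgeR). This comparison shares its libraries at 7 days with the comparisons above.

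Per length, the levels of the genes differed widely, and the transcripts of the end-binding Ku subunits had the highest ones. In CPM per kb of the deposited gene length, untreated cells held 228 of XRCC6, 126 of XRCC5, 113 of H2AFX, 52.8 of PRKDC, 49.7 of PARP1 and 34.8 of MDC1. The place of MDC1 rests on untreated replicate 5, with 648 CPM against 147 to 220 CPM in the other untreated libraries. At the other end were 2.05 of XRCC3, 2.36 of RAD54B and 3.02 of FANCB. At 7 days H2AFX stood at 37.0 CPM per kb, below the 50.4 of PRKDC and next to 38.0 for RAD51C and 36.2 for PARP1, while XRCC6 and XRCC5, at 178 and 94.1, still led. The ratio of XRCC5 to XRCC6 was 0.568 ± 0.0952 (SD, n = 5) in untreated cells, with a median of 0.531 and a maximum of 0.734. It was 0.531 ± 0.0123 at 1.5 h, 0.529 ± 0.00900 at 7 days and 0.590 ± 0.0251 in the knockdown. The ratio of PARP2 to PARP1 was 0.324 ± 0.0360 in untreated cells, 0.290 ± 0.0131 at 7 days and 0.239 ± 0.00813 in the knockdown, the lowest of the 4 groups. These ratios are descriptions, for 9 pairs in all, and were not tested.

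**Figure D4:**
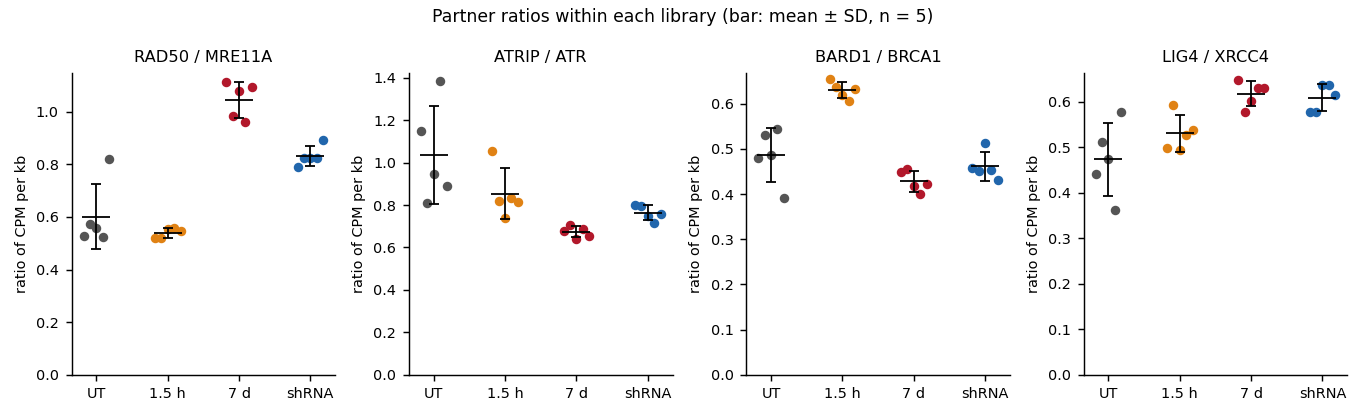
Ratio of CPM per kb (y axis, from 0) of 2 partners within each library, for RAD50 over MRE11A, ATRIP over ATR, BARD1 over BRCA1 and LIG4 over XRCC4, with the mean and SD of 5 libraries as bars. RAD50 over MRE11A is highest at 7 d, between 0.963 and 1.11, ATRIP over ATR is lowest at 7 d, between 0.644 and 0.707, BARD1 over BRCA1 is highest at 1.5 h, and untreated libraries have the largest SD in each panel.

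Other genes of the same pathways were followed on a separate list, of which 81 genes were tested. At 7 days 17 of them (21.0%, against 14.4% of all genes) fell and 1 (1.23%, against 16.7%) rose, and the median was −0.15. The 5 largest falls were those of CDC25C (−1.19 ± 0.076) and CDC25B (−1.05 ± 0.049), phosphatases that CHEK1 holds back, RMI2 (−1.02 ± 0.096), a subunit of the BLM dissolvasome, the meiotic recombinase DMC1 (−0.87 ± 0.32), which was near the limit of detection at 0.4 CPM in untreated cells, and UBE2T (−0.83 ± 0.070), the E2 enzyme that acts with FANCL. The rise was that of PARP3 (0.62 ± 0.073), a PARP enzyme of end joining. At 1.5 h none of the 81 was called lower by edgeR or DESeq2, against 1.57% of all genes, 15 had negative values at an unadjusted p under 0.05, and CDC25A, the phosphatase of S phase entry, rose by 0.62 ± 0.051, the 1 rise (1.23%, against 2.08%). In the knockdown BRE (−0.74 ± 0.047), CDC25B (−0.71 ± 0.048) and RHNO1 (−0.51 ± 0.13) fell and FAM175A (0.60 ± 0.057) rose (3.70% and 1.23%, against 7.53% and 5.18% of all genes), where BRE and FAM175A encode 2 subunits of the BRCA1-A complex and RHNO1 a partner of the checkpoint clamp.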

How the data were processed

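Stranded mRNA libraries from Trizol-extracted RNA of U2-OS cells were sequenced by the authors as single reads. Their processing notes name bcl2fastq, Trimmomatic, STAR 2.4.2a and the build hg19, while the counter, the annotation, the strand setting and how the gene length was taken are not given in the sources used here. The authors deposited raw whole-number counts per gene, without normalization, and 1679 of 20314 rows had no symbol. Replicates were labelled as biological, and totals are given in the report.

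Counts were analysed with edgeR 4.0.16 in R 4.3.3: filterByExpr (minimum count 10), TMM, 1 quasi-likelihood model with a term per group over all 20 libraries, and Benjamini-Hochberg adjustment over 14992 genes. Calls needed an absolute log2 fold change above 0.5 and an adjusted p under 0.05. Exact two-sided permutation tests used log2 CPM (prior count 2). DESeq2 1.42.0 and other settings were alternatives. The fit was also run on simulated counts as a check of the code, and the outcome is not given here. The members and lists were chosen with earlier results of these data known, and p values were not adjusted over lists alone. Values per library were printed for the 8 largest falls at 7 days, for BRCA1, BRCA2 and PRKDC, and for genes called at 1.5 h or in the knockdown. Of the pathway list the 5 largest falls and rises called at 7 days were named, and of the proliferation list MKI67, CCNB1 and PCNA. Values of RAD50, RAD51C, FANCD2, CHEK1, EXO1, FANCC and PARP1 were added after their values were seen.

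Gene overlaps came from GENCODE 29, in which 15 of the 49 genes overlapped a gene on the same strand, 32 one on the other strand and 12 neither. With an unknown strand setting, such counts can share reads, as MDC1 with MDC1-AS1, FANCA with ZNF276, RAD54L with LRRC41, BRCA1 with NBR2 and XRCC3 with KLC1. CHEK2 and XRCC6 have several pseudogenes. Replicate numbers did not pair libraries (r from -0.254 to 0.123 over 30 pairs of same-numbered libraries), and no libraries of a group were duplicates (chi-square per degree of freedom at least 1.75). Figures were drawn with matplotlib 3.10.9.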

Additional observations from a re-analysis of the deposited data

Results flagged for a closer look

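Among 196 sets of 5 libraries (49 genes in 4 groups), 17 held a library that lay far from the other 4 by Dixon's test, and chance alone gives about 1 in 20 such sets. Untreated replicate 5 was the far library in 6 of them, with 47.8 CPM of BLM, 12.4 of XRCC3, 55.5 of RAD54L, 69.6 of FANCG, 105 of FANCI and 648 of MDC1. Untreated replicate 4 read 30.2 CPM of FANCM. At 1.5 h replicate 1 read 766 CPM of PRKDC and replicate 2 read 31.3 of LIG4. At 7 days replicate 1 read 9.42 CPM of XRCC3 and 124 of MDC1, replicate 2 read 44.7 of FANCL and 34.7 of RNF168, and replicate 5 read 51.6 of FANCD2. In the knockdown replicate 4 read 19.9 CPM of XRCC2 and 131 of TP53BP1, and replicate 5 read 12.4 of XRCC3. The values of the other libraries for MDC1 and FANCD2 are given in the report.

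For 20 genes the change from untreated cells differed between the time points, by the edgeR test of 7 days against 1.5 h. As the log2 change at 7 days minus that at 1.5 h, the differences were −1.06 for H2AFX, −0.93 for BARD1, −0.88 for CLSPN, −0.84 for EXO1, −0.83 for BLM, −0.80 for BRIP1, −0.79 for POLQ, −0.77 for RAD54L, −0.76 for CHEK1 and −0.75 for TOPBP1. They were −0.72 for FANCD2, −0.70 for FANCA, −0.67 for FANCC, −0.63 for XRCC3, −0.61 for MDC1, −0.60 for BRCA2, −0.58 for FANCG, −0.55 for FANCB, −0.54 for PARP2 and −0.51 for FANCI.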

How the results depend on the processing

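Leaving out 1 library at a time, the number of genes called lower ranged from 17 to 20 at 7 days, 0 to 1 at 1.5 h, 3 to 6 in the knockdown, 19 to 20 for 7 days against 1.5 h and 5 to 7 against the knockdown, and the number called higher from 0 to 1, 0 to 0, 1 to 2, 0 to 0 and 1 to 1. Without untreated replicate 4 the knockdown had 6 genes lower, and without replicate 5 it had 2 genes higher, RAD50 with LIG4. With the replicate number as a block the counts were unchanged, at 17, 1, 3, 20 and 5 lower and 0, 0, 1, 0 and 1 higher. With the lane as a factor 3 genes were higher at 7 days (21.8% of all genes), 4 were lower and 5 higher at 1.5 h (13.6% and 11.9%), and 12 were lower and 6 higher in the knockdown (14.0% and 13.3%), counts that rest on untreated replicate 5 as the link between lanes. At a log2 threshold of 1 there were 2 lower at 7 days, 0 at 1.5 h, 0 lower and 0 higher in the knockdown, 1 lower for 7 days against 1.5 h, and 0 lower and 0 higher against the knockdown, by edgeR. By the adjusted p alone there were 34 lower and 6 higher, 4 and 6, 21 and 6, 36 and 7, and 31 and 3. At 1.5 h no gene was called lower in a fit of only these groups, by Bonferroni correction or without untreated replicates 4 and 5 (0 each), and in lane 3 alone 4 were lower and 4 higher. The knockdown had 1 gene lower with library size alone and 5 without untreated replicates 4 and 5. For 7 days against 1.5 h, 1 gene was higher with upper-quartile factors and with library size alone. Against the knockdown 8 were lower in lane 5 alone. On the pathway list 3 genes were lower at 7 days at a log2 threshold of 1 and 40 by the adjusted p alone, and on the proliferation list 15 at the former. The 51 single-gene results followed were those called in the main fit, with BRCA1, BRCA2 and PRKDC at 7 days. Over 1174 alternatives, 1074 kept their side of the threshold, 85 lost a call, 45 of them at the larger threshold, and 15 gained one. Of the called results 0 reversed direction, and the cause was not tested. Direction was not followed for results that stayed uncalled. Among genes past the adjusted p but not called, the lane as a factor turned the sign of 3 at 7 days, 2 at 1.5 h and 7 in the knockdown, and these no longer passed. Other scalings changed the sign of 0 members past the adjusted p and moved their median by at most 0.058.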
